A study of Mus musculus with 20 samples.

Results

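The genes described here encode cytosolic and mitochondrial heat shock proteins, measured in the liver of diabetic mice given phloridzin, a glucoside that inhibits sodium-glucose cotransport. The list named 10 genes, of which 9 were measured among 12947 genes kept: Hspa8, Hsph1, Dnajb1, Dnaja1, Hsp90aa1 and Hspb1 of the cytosol, and Hspa9, Hspd1 and Hspe1 of mitochondria. Hsp90ab1 was not analysed here, since no probe set is listed under its symbol alone. A member was taken from the probe sets annotated to that gene only, and the probe set with the highest mean over 20 arrays stood for it. All 9 passed the filter on low values.

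The animals were BALB/c males that arrived at 6 weeks of age and formed 4 groups, with 5 arrays per group and 1 mouse per array. Untreated mice received no injection and were labelled as eating the purified AIN93G diet for 14 days. The mice of the other 3 groups received streptozotocin (STZ), a toxin of pancreatic beta cells, at 185 mg/kg by intraperitoneal injection, and entered the diet phase with non-fasting blood glucose between 330 and 590 mg/dL. These ate AIN93G alone (the STZ group), or AIN93G with 0.1% or 0.5% phloridzin, for 14 days. The injection itself, diabetes and any direct action of STZ on liver cannot be told apart in this design. The study had 6 mice per group and housed mice in cages of 3, so mice of a group probably shared cages. Cages are not given per array, and the fit treats the arrays of a group as independent.

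Heat shock proteins are chaperones that bind unfolded protein and help it to fold, to reach its place or to be degraded. In the cytosol HSP70 proteins work in an ATP-driven cycle with HSP40 partners, which deliver clients, and HSP110 proteins, which exchange the nucleotide, and then pass some clients to HSP90. In mitochondria an HSP70 pulls imported protein into the matrix, and the HSP60 and HSP10 ring folds it there. Many of these genes are induced by heat shock factor 1 through heat shock elements, which are alternating GAA and TTC units. In liver their messenger RNA also follows feeding, body temperature and the time of day.

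The deposited signals had a mean between 179 and 195 on 19 arrays and of 224 on replicate 4 of the 0.1% phloridzin group, and a median between 11.2 and 17.1 on all 20. Of the 9 measured hepatocyte markers, Alb, which encodes albumin, lay between 8660 and 34070 over the 20 arrays, Hnf4a, a hepatocyte transcription factor, between 2430 and 3542, and Ass1, a urea cycle enzyme, between 36.3 and 225. Their summed signal lay between 93700 and 112500 in untreated mice and between 66890 and 98580 in STZ mice. It lay between 81490 and 196200 at 0.1% phloridzin and between 81700 and 91420 at 0.5%. Tf, the tenth marker, did not pass the filter. In bulk tissue, fewer cells of a type and less RNA per cell cannot be told apart.

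The runs that follow show the promoter letters that 5 members share, since heat shock elements are the known regulatory sequence of this family. RefSeq promoter windows (GRCm38.p6, 250 bases before to 50 bases after a start site) were given for 6 of the 10 members. Capitals mark the searched letters, GAANNTTC or TTCNNGAA for 2 units and their 3-unit extension, on both strands. Every 3-unit match also holds 2-unit matches. All runs are 5′ to 3′ on the strand of the gene.
Hspe1 (chr1:55088053-55088082, + strand): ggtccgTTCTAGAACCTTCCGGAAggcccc
Hspd1 (chr1:55088053-55088082, - strand): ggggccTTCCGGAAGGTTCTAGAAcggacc
Hsph1 (chr5:149636287-149636316, - strand): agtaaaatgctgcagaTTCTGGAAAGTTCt
Hspb1 (chr5:135887801-135887830, + strand): aGAAGTTTCcagatgggggcaGAACCTTCc
Dnaja1 (chr4:40722333-40722362, + strand): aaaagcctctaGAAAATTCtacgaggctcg
The Hspd1 and Hspe1 runs are the same bases read on opposite strands, between these head-to-head genes, with 18 bases of unbroken units that begin 144 bases before one Hspd1 start site and 89 bases before the Hspe1 start site. The Hsph1 run carries a 3-unit match that begins 36 bases after a start site. Hspb1 has 2 separate 2-unit matches and Dnaja1 has 1, and the 2 Dnajb1 windows have none. A 2-unit match was thus present for 5 of 6 members and a 3-unit match for 3 of 6, beside 17% and 0.662% of the 27025 genes in the table (15.1% and 0.603% of all windows). The windows of Hspa8, Hsp90aa1 and Hspa9 were not given.

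Against untreated mice, STZ mice had no member whose difference passed an adjusted p of 0.05, although 13.8% of all 12947 genes passed it. Hsp90aa1 was the cytosolic member with the lowest mean relative to untreated mice, at 1.49-fold lower, and Hspa9 was 1.22-fold higher, and both missed the threshold. Here and below, p-values are from limma's moderated test on log2(signal + 16), adjusted by Benjamini-Hochberg over all genes, and folds are on that scale. Where a fit over probe sets is named, the adjustment is over probe sets instead. At an unadjusted p under 0.05 the count was 2 of 9 members, beside 28.4% of all genes. No member separated the 2 groups without overlap, which 12.9% of genes did. The median log2 difference was 0.04 over the members and -0.05 over all genes.

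Hspa8 encodes HSC70, the constitutive cytosolic HSP70 that folds new protein and uncoats clathrin vesicles. Its untreated signals in replicates 1 to 5 were 5678, 4156, 5607, 3547 and 4446, and its STZ signals were 4036, 4642, 6373, 3182 and 6730. The STZ arrays reached both below and above the untreated range. The log2 difference was 0.06 ± 0.34 (SE, n = 5 per group), with an adjusted p of 0.933 and a 95% interval from -0.65 to 0.77.

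Hsph1 encodes HSP105, an HSP110 protein that recharges HSP70. Its untreated signals were 922, 592, 941, 527 and 775, and its STZ signals were 691, 333, 767, 322 and 812. Replicates 2 and 4 of the STZ group lay below every untreated array, and the other 3 lay within the untreated range. It differed by -0.42 ± 0.38 on the log2 scale (adjusted p = 0.498).

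The HSP40 partners had smaller differences than Hsph1. Dnajb1, which activates HSP70 for refolding and disaggregation, ranged from 336 to 624 in untreated mice and from 246 to 447 in STZ mice (log2 difference -0.24 ± 0.24, adjusted p = 0.548). Dnaja1, an HSP40 that escorts clients and helps mitochondrial import, ranged from 2206 to 2820 and from 2535 to 3383 (0.27 ± 0.16, adjusted p = 0.286). The groups overlapped for both genes.

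Hsp90aa1 encodes the inducible cytosolic HSP90, which matures kinases and steroid receptors. Its untreated signals were 3824, 2935, 3776, 2212 and 2466, with a mean of 3043 ± 739 (SD, n = 5). Its STZ signals were 2026, 2086, 2506, 1215 and 2426, with a mean of 2052 ± 512. Replicates 4 and 5 of the untreated group lay among the STZ arrays, so the groups overlapped. The log2 difference was -0.57 ± 0.27, with an adjusted p of 0.167.

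Hspb1 encodes HSP27, a small heat shock protein that holds unfolded protein without using ATP. Its mean signals were 134 ± 26.04 in untreated and 90.9 ± 32.5 in STZ mice. The lowest untreated array was at 101, and 3 of the 5 STZ arrays lay below it. On the log2 scale the groups differed by -0.52 ± 0.27 (adjusted p = 0.209).

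None of the mitochondrial members passed the test. Hspa9, mortalin, is the HSP70 of the import motor, and its signals were 2016, 2045, 1853, 1832 and 1684 in untreated mice and 1847, 2638, 2230, 2466 and 2366 in STZ mice. Replicate 1 of the STZ group lay within the untreated range and the other 4 above it, and the log2 difference was 0.28 ± 0.13 (adjusted p = 0.157). Hspd1, the HSP60 ring, had means of 3732 ± 245 and 3873 ± 177, and Hspe1, its HSP10 lid, of 3167 ± 239 and 3251 ± 247. The 95% interval of the log2 difference ran from -0.13 to 0.24 for Hspd1 and from -0.19 to 0.27 for Hspe1.

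**Figure D1:**
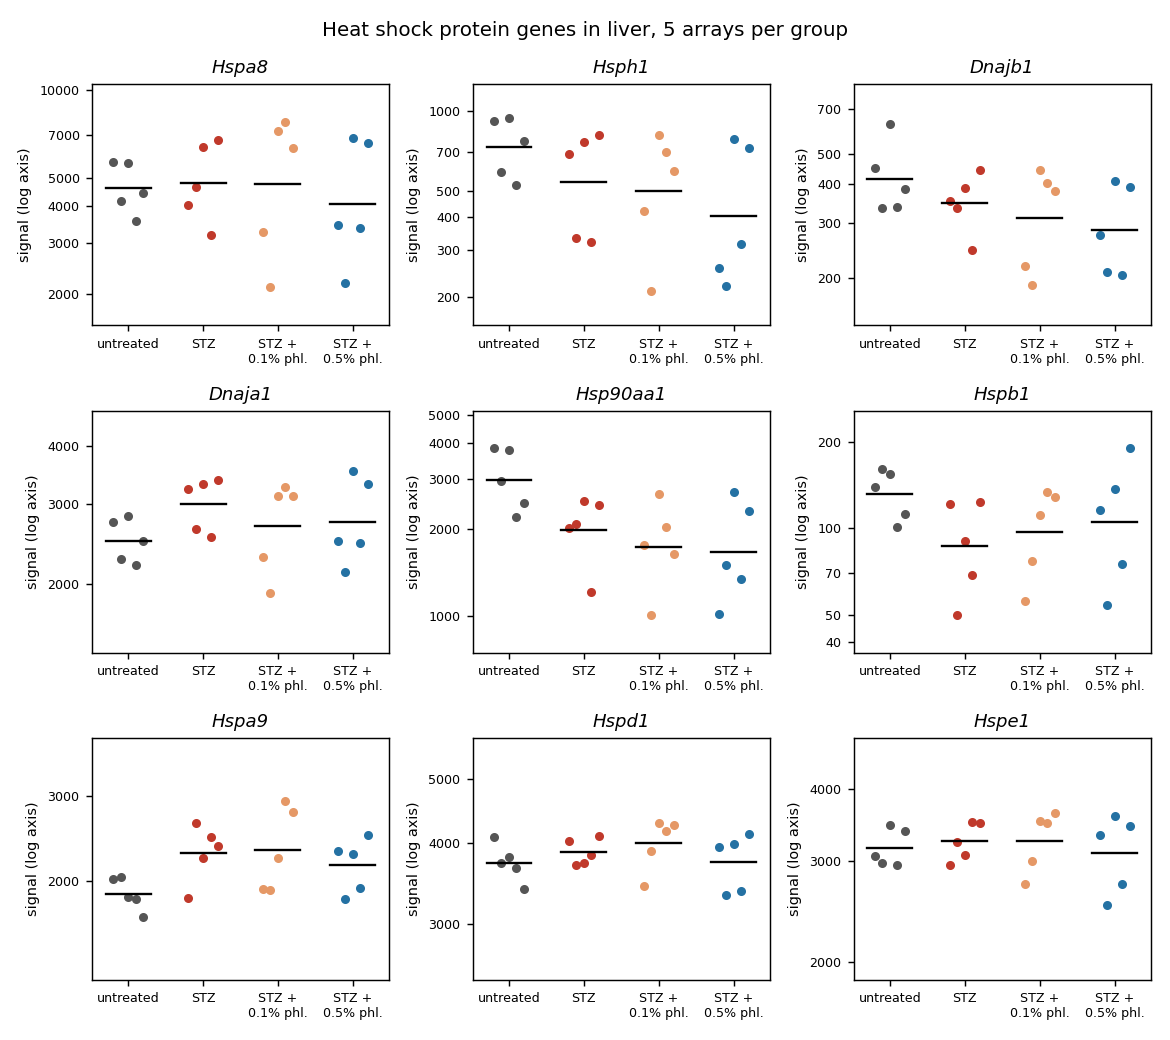
Signal of each heat shock protein gene on each array (points, log axis, a separate scale per gene) in the 4 groups of 5 mice, with the group mean on the log2(signal + 16) scale as a line. The untreated and STZ points overlap for every gene, and Hspa8, Hsph1 and Hsp90aa1 spread widely within the phloridzin groups.

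No member passed an adjusted p of 0.05 at either dose of phloridzin against STZ mice, or between the doses. No gene did so either: 0% passed in each of these 3 comparisons. The largest member differences at 0.1% phloridzin were -0.20 ± 0.27 for Hsp90aa1 and -0.16 ± 0.16 for Dnaja1, and at 0.5% phloridzin -0.42 ± 0.38 for Hsph1 and -0.27 ± 0.24 for Dnajb1. At an unadjusted p under 0.05 there were 0 members in each comparison by limma, beside 5.29% of all genes at 0.1% phloridzin against STZ, 4.8% at 0.5% phloridzin against STZ and 6.49% between the doses.

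The intervals say how large a difference these comparisons leave room for. For 0.5% phloridzin against STZ the 95% interval of the log2 difference was -0.24 to 0.14 for Hspd1, -0.30 to 0.16 for Hspe1 and -0.36 to 0.18 for Hspa9, all narrow. It was -0.95 to 0.48 for Hspa8, -1.21 to 0.37 for Hsph1 and -0.82 to 0.31 for Hsp90aa1. The adjusted p was 0.996 for all 9 members in this comparison. At 0.5% against 0.1% phloridzin, 7 of the 9 members had a lower mean at the higher dose, from -0.06 for Hsp90aa1 to -0.30 for Hsph1, and all adjusted p-values were 0.884 or more.

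Against untreated mice, Hsp90aa1 was lower at 0.5% phloridzin, and it was the only member that passed the threshold in any of the 6 comparisons of this fit. Its signals at 0.5% phloridzin were 1017, 1497, 2701, 1347 and 2323, with a mean of 1777 ± 706. Replicates 3 and 5 lay within the untreated range of 2212 to 3824, and the other 3 lay below it. The log2 difference was -0.83 ± 0.27, or 1.77-fold lower, with an adjusted p of 0.0483. The count of 1 of 9 members stands beside 12.7% of all genes.

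This call was at the edge of the threshold. The adjusted p was 0.0522 after centring each array on its median, 0.0651 without the filter on low values and 0.0513 in a fit of the 2 groups alone. In a separate fit over all probe sets that passed the filter, the probe set used had an adjusted p of 0.0552. In that fit the other probe sets of Hsp90aa1 gave log2 differences of -0.64 and -0.72, with adjusted p-values of 0.125 and 0.151. The mean over its probe sets gave -0.40 with an adjusted p of 0.135. That mean took in all 5 of its probe sets, of which only 3 passed the filter on low values. Leaving out 1 array ended the call for 14 of the 20 arrays, with adjusted p-values up to 0.152 (without replicate 1 of the 0.5% phloridzin group). It held without replicate 4 of the untreated group, replicate 4 of the STZ group, replicates 2 and 3 of the 0.1% phloridzin group, and replicates 3 and 5 of the 0.5% phloridzin group.

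At 0.1% phloridzin the Hsp90aa1 signals were 1764, 1006, 2662, 2033 and 1641, and only replicate 3 lay within the untreated range. The log2 difference from untreated mice was -0.77 ± 0.27, close to the value at 0.5%, with an adjusted p of 0.0556. No member passed here, beside 16.7% of all genes. The moderated F test of any difference among the 4 groups gave Hsp90aa1 an adjusted p of 0.115, and 0 of 9 members passed it, beside 12.9% of all genes. The 3 comparisons with untreated mice share the same 5 untreated arrays.

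Hsph1 did not pass the test at 0.5% phloridzin against untreated mice. Its signals were 256, 220, 788, 316 and 726, so replicates 1, 2 and 4 lay below every untreated array and the other 2 lay inside the untreated range. The log2 difference was -0.84 ± 0.38 (adjusted p = 0.154). Dnajb1 had a log2 difference of -0.51 ± 0.24 (adjusted p = 0.178), with signals of 275, 210, 410, 205 and 392.1 against an untreated range of 336 to 624.

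At an unadjusted p under 0.05, 3 of 9 members passed at 0.5% phloridzin, all with differences below 0 (Dnajb1, Hsp90aa1 and Hsph1), beside 27.2% of all genes. At 0.1% phloridzin 2 of 9 passed that p, Hsp90aa1 and Hspa9, beside 30.8%. Over the 4 groups it was 1 of 9, beside 27.4%. No member's groups were free of overlap, while 11.1% of all genes at 0.5% and 13.2% at 0.1% phloridzin separated from untreated mice. Hspa9 was 1.23-fold higher at 0.1% phloridzin, with a log2 difference of 0.30 ± 0.13 and an adjusted p of 0.119. Its 0.1% phloridzin signals were 1922, 1920, 2230, 2940 and 2789.

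**Figure D2:**
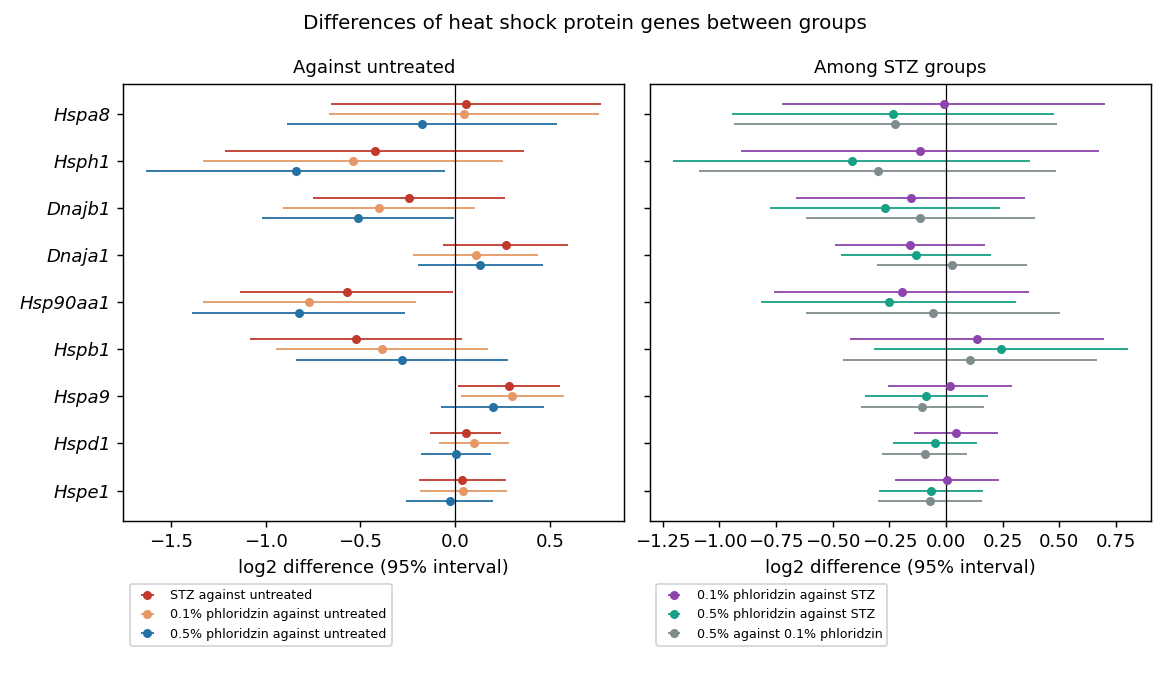
Log2 differences of each gene, with 95% intervals from limma, against untreated mice (left) and among the STZ groups (right). The intervals of Hsp90aa1 against untreated mice lie below 0, with an estimate of -0.83 at 0.5% phloridzin, and every interval on the right includes 0.

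The cytosolic members varied more between mice of a group than most genes did. The SD within groups on the log2 scale was 0.67 for Hsph1, 0.60 for Hspa8, 0.47 for Hsp90aa1, 0.47 for Hspb1 and 0.42 for Dnajb1, against a median of 0.23 over all genes. These values sit at the 99.1, 98.6, 96, 95.9 and 93.4 percentile of all genes. Dnaja1 was nearer the middle, with an SD of 0.26 at the 62.3 percentile. The mitochondrial members were steadier: 0.21 for Hspa9, 0.16 for Hspe1 and 0.11 for Hspd1, at the 38.8, 19.6 and 3.92 percentile.

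Hspa8 shows the scale of this spread. Its signals in the 0.1% phloridzin group were 3270, 2108, 7215, 7789 and 6344, a 3.67-fold range among 5 mice of the same label. In the 0.5% phloridzin group they were 3437, 2183, 6824, 3362 and 6578, a 3.11-fold range, and in untreated mice the range was 1.6-fold. The arrays of each phloridzin group fell on both sides of a gap, with 2 low and 3 high at 0.1% and 3 low and 2 high at 0.5%. The share of the variance of Hspa8 that lay between the groups was 2.95%, against a median of 23.6% over all genes, and for Hsp90aa1 it was 37.6%.

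The same mice were high or low for several cytosolic members at once. On 13 of 20 arrays all 6 cytosolic members lay on the same side of their group means, above on 8 and below on 5. The mean of the 6 members, each relative to its group, was lowest in replicate 2 of the 0.1% phloridzin group (-0.76 on the log2 scale) and in replicate 2 of the 0.5% phloridzin group (-0.58). It was highest in replicates 3 and 5 of the 0.5% phloridzin group (0.60 and 0.58). The untreated arrays stayed between -0.34 and 0.32. The 3 mitochondrial members lay on the same side on 12 of 20 arrays, with deviations that were smaller.

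**Figure D3:**
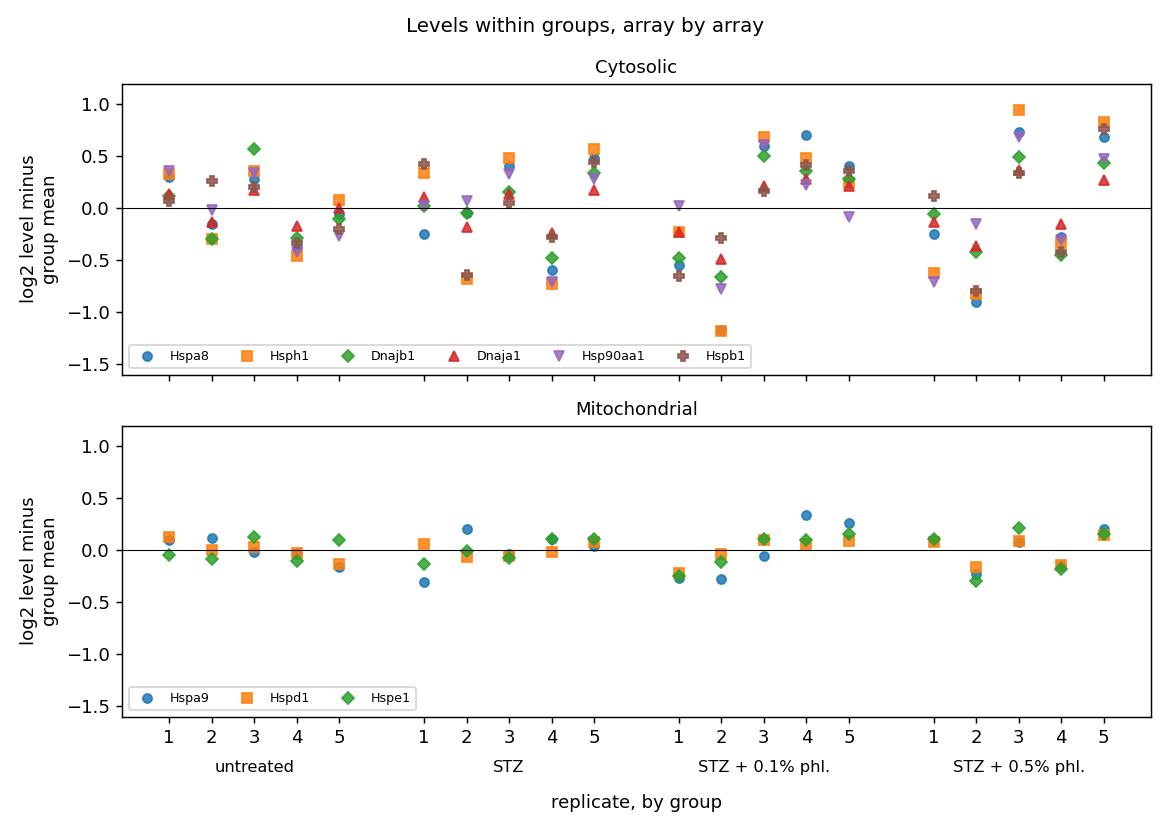
Log2 level of each member minus its group mean, for every array, with cytosolic members above and mitochondrial members below on the same scale. Cytosolic points move together within an array, down to a mean of -0.76 in replicate 2 of the 0.1% phloridzin group, and mitochondrial points stay near 0.

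Pearson correlations over the 20 arrays describe this, with no p-value, since the arrays share groups and handling. With group means removed, r had a median of 0.81 over the 15 pairs of cytosolic members, from 0.49 (Hsp90aa1 with Hspb1) to 0.97 (Hsph1 with Dnaja1). It had a median of 0.67 over the 3 mitochondrial pairs and 0.60 over the 18 mixed pairs. The medians of Spearman's rho were 0.84, 0.60 and 0.60. Without the 2 arrays farthest from the median cytosolic level (replicate 2 of both phloridzin groups), the medians of r were 0.81, 0.60 and 0.52. Hspb1 with Hspd1 was the closest mixed pair, at 0.85, and Hsp90aa1 with Hspa9 the loosest, at 0.26.

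**Figure D4:**
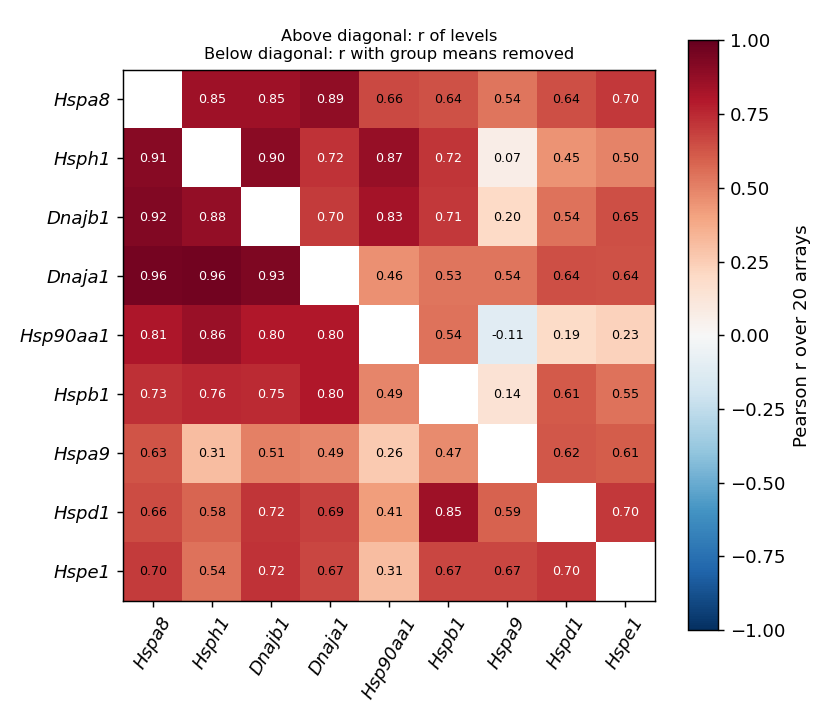
Pearson r between members over 20 arrays, for the levels above the diagonal and with group means removed below it. The block of 6 cytosolic members at the upper left holds the highest values, up to 0.97 for Hsph1 with Dnaja1, and Hsp90aa1 with Hspa9 is the only pair below 0 (-0.11 for the levels).

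Some other measures ran against the cytosolic level within groups. With group means removed, its r over 20 arrays was -0.72 with the summed signal of 8 Kupffer cell markers, -0.65 with that of 2 pancreas genes, -0.56 with that of 6 stellate cell markers and -0.55 with that of 3 neutrophil markers. It was -0.02 with the hepatocyte sum, 0.26 with the array's mean signal and 0.04 with its median. For the remaining lists r was -0.40 (erythroid), -0.39 (B and plasma cell), 0.35 (cholangiocyte), -0.14 (skeletal muscle), -0.12 (sinusoidal endothelium) and -0.01 (T and NK cell). The Kupffer sum ranged from 2924 to 3538 in untreated, 3088 to 4336 in STZ, 2970 to 4594 in 0.1% phloridzin and 3326 to 4192 in 0.5% phloridzin mice. The pancreas sum ranged from 1455 to 1948, 411 to 878, 347 to 930 and 349 to 933 in the same order. It was nearly all Cela1, which ranged from 336 to 1910 over the 20 arrays, while Prss2 ranged from 4.5 to 43.43. Amy2a1, Pnlip and Cpa1 of the same list were not among the genes kept. The part of these measures in the spread was not tested.

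The genes whose level over 20 arrays was most like the mean standardised profile of the cytosolic members were Chordc1 (r = 0.94), P4ha1 (0.885), Hspa1b (0.88), Tmcc1 (0.87) and Ric8a (0.86). Chordc1 encodes an HSP90 co-chaperone, P4ha1 a subunit of collagen prolyl hydroxylase and Hspa1b an inducible HSP70. Chordc1 signals were 350, 249, 545, 576 and 448 at 0.1% phloridzin, low and high on the same arrays as Hspa8. Of 12938 other genes, 10 reached an r of 0.8. The Chordc1 window is shown because it holds the longest run of heat shock units among the genes printed here, 23 bases with 3 overlapping 3-unit matches around the start site.
Chordc1 (chr9:18292260-18292289, + strand): ccgGAACGTTCGGGAAAATTCCTGAAgcag
The mitochondrial profile was most like Acer2 (0.91), Lurap1l (0.90), Zfp236 (0.89), Dleu2 (0.88) and Pck1 (0.87). Acer2 encodes a ceramidase and Pck1 the gluconeogenic enzyme PEPCK, and 40 genes reached an r of 0.8 with this profile.

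A member can be read by several probe sets, and these did not always rank the mice alike. Adjusted p-values in this paragraph are from the fit over all probe sets that passed the filter. For Hsph1 (r = 0.93 with the probe set used), Dnajb1 (0.92), Hspa8 (0.79 to 0.95) and Hspb1 (0.88) the other probe sets followed the one used. For Dnaja1 they followed it less, at 0.41 and 0.59, and one of them gave -0.99 ± 0.31 at 0.1% phloridzin against untreated mice (adjusted p = 0.0383), where the probe set used gave 0.11 ± 0.16. For Hspa9 one faint probe set, with a mean signal of 117 and an r of 0.31, gave 0.66 ± 0.16 in the same comparison (adjusted p = 0.0115). Hspe1 had a second probe set with an r of 0.12. The direction of Dnaja1 against untreated mice and the Hspa9 call thus depended on the probe set, while the Hsp90aa1 difference from untreated mice was below 0 by all 3 of its measured probe sets in each comparison.

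Hspa1a and Hspa1b encode the inducible HSP70, which is low in many resting tissues and surges under stress, and of these Hspa1a passed the test in STZ mice. Its signals were 194, 125, 349, 89.4 and 91.7 in untreated mice and 46.4, 19.7, 64.9, 6.72 and 40.3 in STZ mice, so the groups did not overlap. Hspa1a fell by 1.81 on the log2 scale in STZ mice (SE 0.50, adjusted p = 0.0202), by 1.59 at 0.1% phloridzin (adjusted p = 0.0338) and by 1.63 at 0.5% phloridzin (adjusted p = 0.037). Several of its lower arrays were close to the array median, so these folds rest on faint signals. Leaving out replicate 3 of the untreated group raised its adjusted p in STZ mice to 0.0624, and leaving out replicate 4 of the STZ group raised it to 0.061. The calls at 0.1% and 0.5% phloridzin were lost without replicate 3 of the untreated group too (adjusted p = 0.101 and 0.105), and without replicates 1 and 2 of that group, replicates 1 and 2 of the 0.1% phloridzin group (for 0.1%) and replicates 1, 2, 4 and 5 of the 0.5% phloridzin group (for 0.5%). With a pseudocount of 1 these 2 calls had adjusted p-values of 0.0736 and 0.0755, and with a trended robust prior 0.0536 and 0.0572.

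Hspa1b signals were 2943, 1371, 5152, 1336 and 2246 in untreated mice and 1113, 444, 1317, 197 and 1420 in STZ mice. The highest STZ array was just above the 2 lowest untreated ones. The log2 difference was -1.65 ± 0.72 in STZ mice (adjusted p = 0.135), -1.75 ± 0.72 at 0.1% phloridzin (0.102) and -2.21 ± 0.72 at 0.5% phloridzin (0.0486), and a pseudocount of 1, no filter, a trended robust prior and 16 of 20 omissions of 1 array each ended the last call, which held without replicate 4 of the STZ group, replicates 2 and 3 of the 0.1% and replicate 3 of the 0.5% phloridzin group. Hspa1a and Hspa1b are near-identical neighbouring copies, so their probe sets may read both, and which copy changed is uncertain. Their promoters carry the same run, here as Hspa1b, which is shown for comparison with the members.
Hspa1b (chr17:34959324-34959353, - strand): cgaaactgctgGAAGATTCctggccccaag

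Of the 17 measured genes in a list of other cytosolic HSP70 and HSP40 genes, 0 passed upward and 1 downward in STZ mice, 2 downward at 0.1% phloridzin and 3 downward at 0.5%. The shares of all genes that passed in either direction were 13.8%, 16.7% and 12.7%, and they are the background for this count and those of the lists that follow. The list's median log2 difference in STZ mice was 0.02, beside -0.05 over all genes. Apart from Hspa1a and Hspa1b, the gene that passed was Dnajb2, an HSP40 that targets clients for degradation, at -0.29 ± 0.10 at 0.1% (adjusted p = 0.0453) and -0.35 ± 0.10 at 0.5% phloridzin (0.0235). The Dnajb2 call at 0.1% was lost after median centring (0.167), in 4 other settings and without any 1 of 11 arrays. It held without replicates 2 and 4 of the untreated, 1 and 4 of the STZ, 1 and 3 of the 0.1% and 1, 2 and 3 of the 0.5% phloridzin group. The call at 0.5% was lost after median centring (0.0805) and without replicate 1 or 5 of the untreated or replicate 1 of the 0.5% phloridzin group. None of the lists in this or the next paragraphs had a gene that passed among the STZ, 0.1% and 0.5% phloridzin groups.

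Of 24 measured co-chaperones of HSP70 and HSP90, 3 were higher and 0 lower in STZ mice, 4 and 2 at 0.1% phloridzin, and 2 and 2 at 0.5%, beside the 13.8%, 16.7% and 12.7% of all genes. Fkbp5, a glucocorticoid-induced brake on the HSP90 and steroid receptor complex, rose 3.72-fold in STZ mice (adjusted p = 0.00637), 3.55-fold at 0.1% and 4.02-fold at 0.5% phloridzin. Nudc, an HSP90 co-chaperone of the dynein pathway, rose 1.29-fold in STZ mice (0.029), and Bag6, which sorts misfolded membrane proteins, rose 1.26-fold (0.0377). With the mean over its probe sets Nudc had a log2 difference of 0.00084 in STZ mice (0.998), 0.078 at 0.1% (0.667) and 0.11 at 0.5% phloridzin (0.549). The STZ calls were also lost without replicate 1, 2 or 3 of the untreated or 5 of the STZ group for Nudc, and without replicate 2, 3 or 5 of the untreated or 2, 4 or 5 of the STZ group, or in a fit of the 2 groups alone (0.0668), for Bag6. Bag3, which links HSP70 to small heat shock proteins and autophagy, had a log2 difference of -0.53 ± 0.19 in STZ mice (adjusted p = 0.0731). It fell by 0.97 at 0.1% phloridzin (0.00228) and by 1.06 at 0.5% (0.00147), with no overlap with untreated mice at either dose. Against STZ mice its log2 difference was -0.53 ± 0.19 at 0.5% phloridzin, with an adjusted p of 0.985. The other co-chaperones that fell were Tomm70a, the import receptor that docks HSP70 and HSP90, by 0.38 at 0.1% phloridzin (0.0132), and Ahsa2, related to an activator of HSP90, by 0.51 at 0.5% (0.0439). The mean over probe sets gave -0.14 for Tomm70a (0.362). The Ahsa2 call was lost with median centring, a pseudocount of 1 or no filter, and without replicate 1, 2, 3 or 5 of the untreated, 4 of the STZ or 1, 2 or 4 of the 0.5% phloridzin group. Stip1, which bridges HSP70 and HSP90, had a log2 difference of -0.26 ± 0.16 in STZ mice (adjusted p = 0.293).

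The Bag3 values show the separation from untreated mice and the overlap among the STZ groups. Its untreated signals were 409, 271, 441, 246 and 332, and its STZ signals were 310, 186, 313, 158 and 197. At 0.1% phloridzin they were 168, 129, 198, 152 and 170, and at 0.5% they were 123, 141, 220, 129 and 154. All 10 phloridzin arrays lay below the lowest untreated array, and they overlapped with the STZ arrays.

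**Figure D5:**
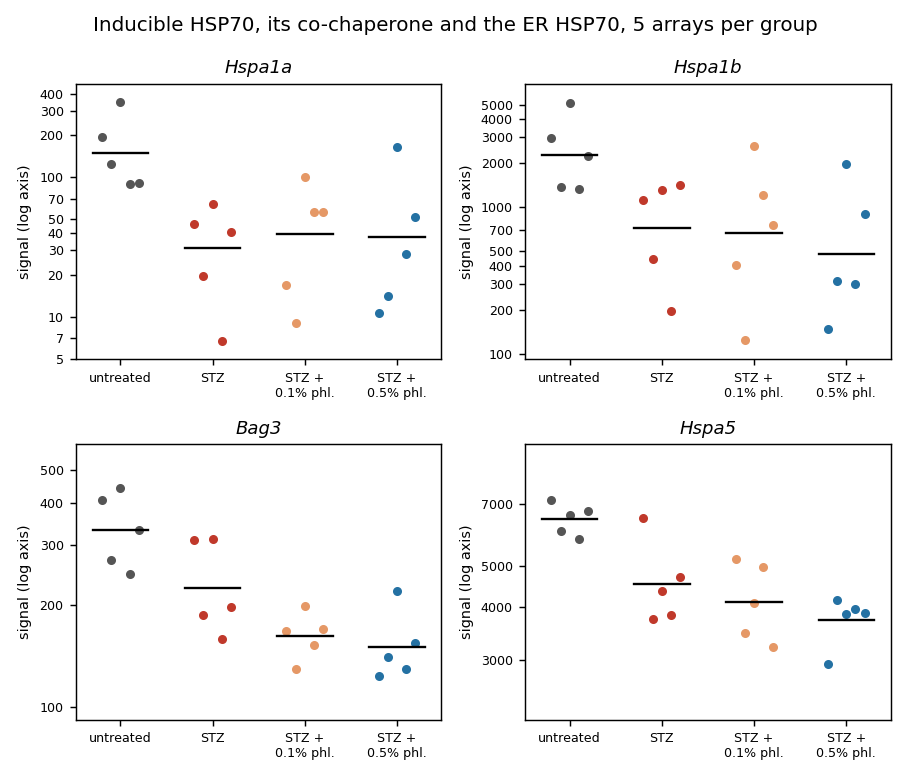
Signal (log axis, a separate scale per gene) of the inducible HSP70 genes Hspa1a and Hspa1b, their co-chaperone Bag3 and the HSP70 of the endoplasmic reticulum Hspa5 on each array, with group means on the log2(signal + 16) scale as lines. Hspa1a in STZ mice lies wholly below the untreated range of 89.4 to 349, and Bag3 lies below 246 on all 10 phloridzin arrays.

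Small heat shock proteins other than Hspb1 had 5 measured genes of 9, with 2 lower in STZ mice, 2 at 0.1% and 1 at 0.5% phloridzin. Cryab, the alpha-B crystallin chaperone, fell by 0.43 in STZ mice (adjusted p = 0.0384), and Hspb11, which despite its symbol is a part of intraflagellar transport, fell by 0.54 (0.00759). The mean over probe sets gave -0.20 for Cryab (0.169) and -0.29 for Hspb11 (0.066). The Cryab call was also lost in 5 other settings, such as median centring (0.112), and without replicate 1, 2, 3 or 5 of the untreated or 2, 3, 4 or 5 of the STZ group. Of 7 measured heat shock factors and regulators, 0 passed in any comparison by limma, with 1, 2 and 2 at an unadjusted p under 0.05 against untreated mice in the STZ, 0.1% and 0.5% phloridzin groups. Hsf1, the main activator of these genes, has no probe set listed under its symbol alone and was not analysed here.

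Mitochondrial chaperones, proteases and import proteins had 21 measured genes, of which 5 were higher and 1 lower in STZ mice, 6 and 2 at 0.1%, and 1 and 1 at 0.5% phloridzin. The list's median log2 difference in STZ mice was 0.19, beside -0.05 over all genes. Tomm40, the channel of the outer membrane, rose by 0.47 (adjusted p = 0.00407), Spg7, a protease of the inner membrane, by 0.51 (0.0263), and Timm17a, of the inner membrane translocase, by 0.29 (0.0292). With the mean over probe sets the Spg7 difference was 0.26 (0.158). The STZ call was also lost without replicate 2 or 4 of the untreated or 2, 4 or 5 of the STZ group for Spg7, and without replicate 1, 2, 3 or 5 of the untreated or 1 or 4 of the STZ group for Timm17a. Clpx, the unfoldase of the matrix ClpXP protease, was lower in all 3 groups: 2.45-fold in STZ mice (0.00976), 2.47-fold at 0.1% and 2.43-fold at 0.5% phloridzin. Yme1l1, another inner membrane protease, fell by 0.51 at 0.1% phloridzin (0.0189). Trap1, the mitochondrial HSP90, rose by 0.32 at 0.1% phloridzin (0.00972) and had a difference of 0.19 ± 0.08 in STZ mice (0.121). With the mean over probe sets the differences at 0.1% phloridzin were -0.13 for Yme1l1 (0.252) and 0.098 for Trap1 (0.434). Lonp1, the matrix protease, had a difference of 0.28 ± 0.12 in STZ mice (0.133).

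Of the 14 genes of the cytosolic chaperonin ring TRiC and of prefoldin, which hands it clients, 1 was higher and 0 lower in STZ mice, 2 and 1 at 0.1%, and 0 and 1 at 0.5% phloridzin. Pfdn2 was the one that rose in STZ mice, by 0.50 (adjusted p = 0.0472), and Pfdn5 rose by 0.33 at 0.1% phloridzin (0.0297). The Pfdn2 call was lost with a pseudocount of 1, without the filter or in a fit of the 2 groups alone (0.0855), and without any 1 of 14 arrays, with a difference of 0.30 without replicate 3 of the untreated group (0.111). It held without replicates 1, 2 and 4 of the untreated, 5 of the 0.1% and 1 and 2 of the 0.5% phloridzin group. The Pfdn5 call was lost with the mean over probe sets (0.16, adjusted p = 0.124), in a fit of the 2 groups alone (0.0507) and without replicate 1, 2 or 3 of the untreated or 3 or 4 of the 0.1% phloridzin group. Cct3, a ring subunit, fell by 0.48 at 0.1% (0.00283) and by 0.44 at 0.5% phloridzin (0.00652), and with the mean over probe sets its differences were -0.19 (0.069) and -0.12 (0.263).

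The chaperones of the endoplasmic reticulum, another folding compartment, are the natural comparison. Of 18 measured, 0 were higher and 7 lower in STZ mice, 1 and 13 at 0.1% phloridzin, and 0 and 9 at 0.5%. The list's median log2 difference was -0.37, -0.51 and -0.43, against 0.04, 0.04 and -0.18 for the members of this family in the same comparisons, and -0.05, -0.04 and -0.01 over all genes. Hspa5, the HSP70 of this compartment, ranged from 5789 to 7168 in untreated and from 2931 to 4155 in 0.5% phloridzin mice, and fell by 0.79 there (adjusted p = 0.00235). Sdf2l1, its co-chaperone, fell by 1.19 in STZ mice (0.0179), and Calr, a lectin chaperone, fell by 0.56 (0.0123). The Sdf2l1 call was lost without replicate 1 of the untreated (0.057) or 4 of the STZ group (0.0533), and the mean over probe sets gave -0.38 for Calr (0.0684). Manf and Creld2, secreted products of the unfolded protein response, fell by 1.11 (0.0044) and 1.26 (0.00577) at 0.1% phloridzin. Hsp90b1, the HSP90 of this compartment, had a difference of -0.29 ± 0.15 in STZ mice (0.194). The difference between the 2 lists was not tested.

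Genes of the circadian clock and markers of other cells also differed between untreated and STZ mice. Of 16 measured clock genes, 7 were higher and 4 lower in STZ mice, and Dbp, a clock output factor, rose 9.29-fold (adjusted p = 1.32e-06), from a range of 65.8 to 302 to one of 894 to 2065. The labels give no time of killing per mouse. Of the marker lists, 3 of 6 stellate cell genes, 2 of 5 B and plasma cell genes, 1 of 2 pancreas genes, 1 of 4 cholangiocyte genes, 1 of 9 hepatocyte genes and 1 erythroid gene were lower in STZ mice, and 1 of 8 Kupffer cell and 1 of 6 sinusoidal endothelium genes were higher. The summed stellate cell markers ranged from 1450 to 2298 in untreated and from 790 to 1349 in STZ mice. The T and NK cell, neutrophil and skeletal muscle lists had 0 changed genes. The part of these in the values of Hsp90aa1, Hspa1a and the other chaperones was not tested.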

How the data were processed

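The authors deposited intensity values, a linear signal per probe set of an Affymetrix mouse array, scaled to the same trimmed mean on every array (100 after dropping the lowest and highest 2%, as computed from the values). Which software made them was not stated. Of 45101 probe sets, 34945 named 1 gene. Values were used as log2(signal + 16). Genes with a mean under the 40th percentile (a signal of 8.48) were left out, which kept 12947. The mean over probe sets, an alternative setting, averaged every probe set annotated to that gene only, including any with signals below that filter. A smaller difference in this setting thus does not by itself show that the probe sets above the filter disagree. Group means of all 20 arrays were fitted in limma 3.58.1 (R 4.3.3; 16 residual and 4.56 prior degrees of freedom), with Benjamini-Hochberg adjustment over all genes kept and calls at 0.05. The number of arrays limits the precision, and p-values measure the spread between mice. The script was tested on simulated data.

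The members and lists were chosen with earlier results of these data known. Named genes were all members, up to 4 called genes per list and comparison by smallest p, a fixed panel (Hsf1, Hspa1a, Hspa1b, Bag3, Stip1, Fkbp4, Ahsa1, Trap1, Lonp1, Hspa5 and Hsp90b1) and the 5 genes most like each profile, so not every such gene is printed. Fkbp4 and Ahsa1 had log2 differences of -0.01 and -0.28 in STZ mice (adjusted p = 0.984 and 0.169). Per2, Cirbp and the least similar genes were named after their values were seen. Promoter sequences are RefSeq's for GRCm38.p6. Positions count the start site as 0. Figures used matplotlib 3.10.9.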

Additional observations from a re-analysis of the deposited data

How the results depend on the processing

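Of the 54 member differences, 48 were never called under any alternative or left-out array and 25 kept their sign under every alternative and every left-out array. The count of members called stayed at 0 under every alternative in STZ against untreated, in the 3 comparisons among STZ groups and in the test of any difference. Counts by the other probe sets are from the fit over probe sets. For 0.1% phloridzin against untreated it was 1 after quantile normalization, with the 60th percentile filter, with only the 2 groups, with array weights and with the replicate block (Hsp90aa1 each time), 1 with the mean of probe sets (Hspa9) and 2 with the other probe sets (Dnaja1 and Hspa9), and 0 to 1 without each array. For 0.5% phloridzin against untreated it was 0 with median centring, a pseudocount of 1, no filter, only the 2 groups, a trended robust prior or the other probe sets, 1 with the mean of probe sets (Hspa9 in place of Hsp90aa1), 2 with the replicate block (Hsph1 and Hsp90aa1), and 0 to 1 without each array. Array weights raised the calls over all genes from 1785 to 2851 in STZ, from 1646 to 2610 at 0.5% phloridzin against untreated and from 1666 to 2792 in any group. The replicate numbers of the labels mark different mice, so the block does not pair samples of 1 mouse. With group means removed, same-numbered arrays of 2 groups correlated over all genes between -0.41 and 0.50, above 0.1 in 13 of 30 pairs. Pairs with different numbers were not summarised for comparison. Of 20 arrays, 8 had their best match, among all arrays of the other groups, in an array of their own number. Some such matches arise by chance, and the count expected was not computed. In replicate 3 the mean cytosolic level relative to group was 0.32, 0.26, 0.46 and 0.60 in untreated, STZ, 0.1% and 0.5% phloridzin mice. In replicate 2 it was -0.11, -0.255, -0.76 and -0.58, and replicates 1, 4 and 5 each had both signs. Whether the numbers follow a shared order or handling was not tested.

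None of the differences that changed sign was called in the main analysis. With quantile normalization the changed values at 0.1% phloridzin were, against STZ, Hspa9 -0.044, Hspd1 -0.044 and Hspe1 -0.076, against untreated, Hspa8 -0.017 and Hspe1 -0.044, and between doses Hspe1 0.0042. Median centring gave Hspa9 -0.023 and Hspe1 -0.036 at 0.1% phloridzin against STZ, and array weights gave Hspe1 0.022 at 0.5% phloridzin against untreated. The mean of probe sets gave Dnaja1 -0.089 in STZ, -0.40 at 0.1% and -0.23 at 0.5% phloridzin against untreated, Hspe1 -0.11 in STZ and -0.061 at 0.1% phloridzin, Hspa8 0.035 at 0.5% phloridzin, Hsp90aa1 0.046 at 0.1% and Hspa9 0.060 at 0.5% phloridzin against STZ, and Hspa9 0.019 between doses. Other probe sets gave, against untreated, Dnaja1 -0.53 in STZ, -0.31 and -0.99 at 0.1% and -0.32 and -0.49 at 0.5% phloridzin, Hspe1 -0.25 in STZ and -0.16 at 0.1%, and Hspa8 -0.089 in STZ, -0.22 at 0.1% and 0.057, 0.012 and 0.25 at 0.5%. Against STZ they gave Hspa9 -0.11 and -0.095 and Hsp90aa1 0.34 at 0.1%, and Dnaja1 0.043, Hspe1 0.035, Hspa8 0.10 and 0.14 and Hspa9 0.053 and 0.029 at 0.5% phloridzin. Between doses they gave Dnaja1 -0.014, Hspa8 0.24 and 0.19 and Hspa9 0.11 and 0.15. The cause was not tested.

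Without each array in turn, signs changed within these ranges. At 0.1% phloridzin against STZ they were Dnajb1 -0.28 to 0.0099, Hspa8 -0.19 to 0.28, Hspa9 -0.067 to 0.086, Hspb1 -0.024 to 0.30, Hspe1 -0.034 to 0.068 and Hsph1 -0.30 to 0.18, and at 0.5% phloridzin Hspe1 -0.12 to 0.0070. Between doses they were Dnaja1 -0.096 to 0.12, Dnajb1 -0.28 to 0.011, Hsp90aa1 -0.25 to 0.12, Hspa8 -0.52 to 0.0016, Hspb1 -0.085 to 0.31 and Hspe1 -0.13 to 0.0021. Against untreated they were Hspa8 -0.063 to 0.21 in STZ, -0.13 to 0.34 at 0.1% and -0.36 to 0.049 at 0.5% phloridzin, and Hspd1 -0.031 to 0.046 and Hspe1 -0.082 to 0.044 at 0.5%.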

Other observations

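Some genes ran against the cytosolic heat shock profile from mouse to mouse. Over the 20 arrays the lowest correlations were those of Dixdc1 (r = -0.88; -0.93 with group means removed), Sgk3 (-0.85; -0.89) and Gstm3 (-0.84; -0.86). Cirbp, which encodes a cold-inducible RNA-binding protein, had an r of -0.83 both ways. Its signals were 57.6, 76.8, 35.7, 58.0 and 36.9 at 0.1% phloridzin and 66.0, 88.3, 37.1, 95.2 and 49.1 at 0.5%. They were lowest on replicates 3 and 5 of each group, which were among the higher arrays for Hspa8. Replicate 4 at 0.1% phloridzin had the highest Hspa8 signal of its group (7789), and its Cirbp signal of 58.0 was near that of replicate 1. In untreated mice Cirbp spanned 34.4 to 59.1.

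Per2, a clock gene, ran with the profile. Its r was 0.68 over the 20 arrays and 0.88 with group means removed, and its signals were 65.4, 37.0, 203, 179 and 127 at 0.1% phloridzin, low on replicates 1 and 2 as Hspa8 was. Per1 had an r of 0.38, and 0.71 with group means removed. These genes were picked after their values were seen, and the correlations are descriptions.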
